A study of Caenorhabditis elegans with 7 samples.

Results

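The genes described here are 35 serpentine chemosensory receptor genes of Caenorhabditis elegans that belong to the Sra superfamily, the Srg superfamily and the solo families, which stand outside the large superfamilies. They are all rows of the authors' deposited value table whose annotation gives exactly 1 gene symbol and whose symbol carries the prefix of 1 of 15 families. The table has 1290 rows, and 961 of them have 1 gene symbol. The Sra superfamily (sra, srab, srb and sre) has 8 members, the Srg superfamily (srg, srt, sru, srv and srx) has 14, and the solo families (srw, srz, srbc and srsx) have 13. No row belonged to srxa or srr.

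RNA of whole larvae at the first larval stage (L1) was compared between 4 arrays of a strain labelled ahr-mutant, in which the ahr gene is described as nonfunctional, and 3 arrays of wild type worms, which the series title calls N2. The labels give no allele of the mutant strain. Larvae of both strains hatched and grew on plates with E. coli and liquid. Each sample was labelled with Cy3 and read on 1 spotted array of 23232 spots, and nothing beyond the word biological in the mutant titles says that samples came from separate cultures, so p-values measure the spread between these samples.

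Serpentine receptors are G protein-coupled receptors with several membrane-spanning segments, and worms have a large repertoire of them. Most are made in ciliated sensory neurons of the head and tail, where receptors in the cilia bind odorants, tastants or pheromones and signal through G proteins, cyclic GMP and ion channels. Most single receptors have no known ligand. Members of the srbc, srg and srx families are known as receptors of ascarosides, the pheromones with which worms sense crowding, and srw receptors resemble receptors of neuropeptides. AHR-1, the worm's counterpart of the aryl hydrocarbon receptor, is a transcription factor known for its part in the fate of several neurons. ahr-1 itself was not analysed here, since no named spot belongs to it.

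All 35 symbols were found in the RefSeq annotation of the assembly WBcel235, which holds 905 genes of these 15 families, pseudogenes included. The value table thus held 3.87% of the families' genes. Its 959 distinct symbols, not restricted by gene type, equal 4.38% of the 21904 protein-coding genes and pseudogenes of that annotation. Which genes have a spot on the array was not determined, so the shares in this paragraph do not measure the authors' choice of rows. The share was highest for srb, with 3 of 19 genes, and was 7 of 145 for srw and 7 of 137 for srx. The members on chromosome V numbered 17, or 48.6% of the 35, against 64.3% of the 905 annotated family genes. RefSeq lists srg-19, srx-53 and srz-45 as pseudogenes, 8.57% of the members, against 20.3% of the annotated family genes. The probe sequences were not analysed here, so how well a spot separates a receptor from its close relatives is unknown.

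The value table gives ratios of signals, and 34 of the 35 members were traced to a spot in the array files, where a level on every array could be read. For 30 members the table row matched a single spot. For another 4 (sra-38, srb-11, sru-1 and srx-134) the row was an average over 2 or 3 spots that the annotation assigns to different genes, and the member's own spot is used here. The remaining member, srx-110, has the values of a spot that a second, unnamed row also holds and that lies far from the place its row number gives, so its own spot was not determined. Levels below are log2 of the quantile-normalized signal of a spot, and differences are ahr-mutant minus wild type on that log2 scale. ahr-mutant replicate 1 was deposited in another spot order and was put back into the order of the other arrays for 85.6% of spots. It has no usable value for srab-22, sru-9, srbc-3 and srz-6, whose mutant group is 3 arrays.

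None of the 34 members passed a limma adjusted p of 0.05 in the comparison of the strains over all 22502 spots tested, of which 0.00889% passed. At an unadjusted p under 0.05, 10 members were higher in the mutant (29.4% of the 34), against 4.03% of all spots and 28.9% of the 1247 spots behind table rows. Another 14 were lower (41.2%), against 3.52% of all spots and 31.4% of table spots. The count of 14 became 9 when ahr-mutant replicate 2, ahr-mutant replicate 3, wild type replicate 1 or wild type replicate 2 was left out. The values of the 2 strains did not overlap for 11 members higher in the mutant (32.4%) and 16 lower (47.1%), against 5.6% and 4.67% of all spots, and 33.4% and 41.1% of table spots. The authors chose the table rows on these same arrays by a rule not given in the sources used here, so members are read against table spots. Before the local adjustment for slide position described below, the shares of higher members lay near those of table spots. The share of lower members at an unadjusted p under 0.05 lay above that of table spots. After that adjustment both shares at that p lay above those of table spots. They were 26.5% against 20% for higher members and 26.5% against 22.9% for lower ones. No test of these shares was made, so no contrast between the directions is read from them.

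In the mutant, 12 members had a higher and 22 a lower mean. The median difference of the 34 was -0.65, against 0.02 over all spots tested and -0.45 over table spots. The median size of the difference was 1.13, against 0.92 over table spots. In 19 members the strain means differed more than 2-fold, 9 of them higher and 10 lower in the mutant. The same share of table spots was not counted, and their median size of 0.92 is itself close to 2-fold. The standard deviation within a strain ran from 0.093 to 0.90 in the mutant and from 0.11 to 1.28 in the wild type across members. In whole larvae, fewer cells of a type and less RNA per cell cannot be told apart.

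**Figure D1:**
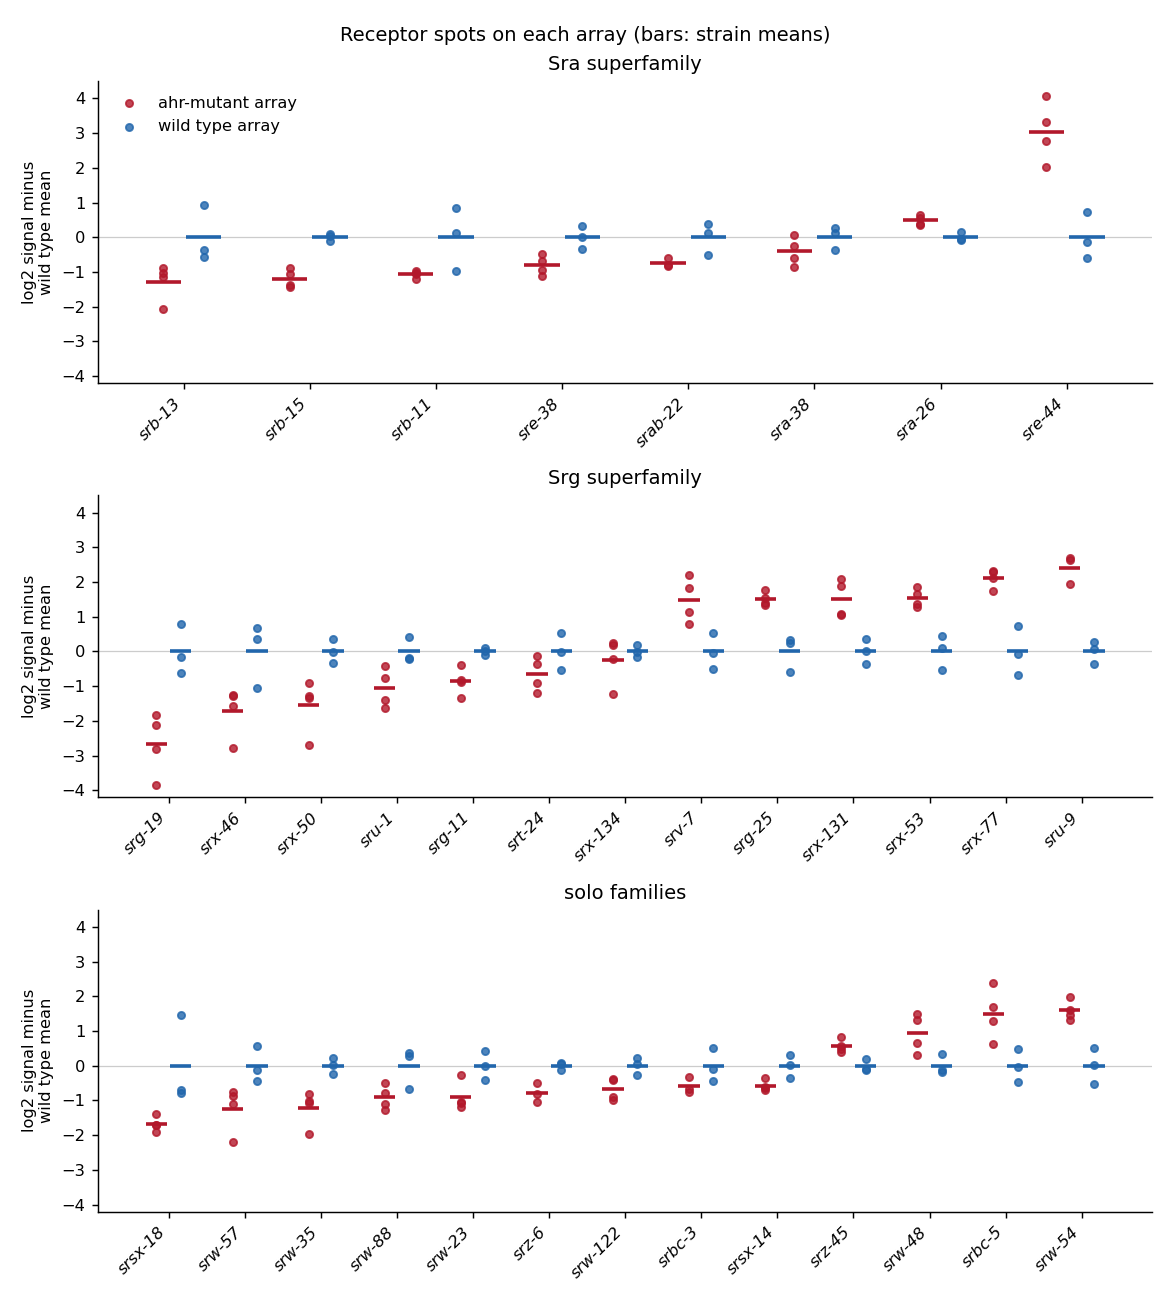
Log2 signal of each of 34 receptor spots on each array, as the difference from the wild type mean of that spot (vertical axis), with ahr-mutant arrays in red left of the wild type arrays in blue and horizontal bars for strain means. sre-44, sru-9 and srx-77 stand highest above the wild type and srg-19 stands lowest. The strains do not overlap for 11 members higher in the mutant (32.4%) and 16 lower (47.1%), against 33.4% and 41.1% of table spots.

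The difference between strains also ran with the position of a spot on the slide, and the members' directions went with it. Over spots outside the value table, the median difference was -0.45 in slide row 1 of the 12 rows of printed blocks and 0.50 in row 12. Of the 22 members in rows 1 to 6, 21 were lower in the mutant, and of the 12 members in rows 9 to 12, 11 were higher. Table spots in general showed the same split, with 648 of 702 lower in rows 1 to 6 and 399 of 426 higher in rows 9 to 12. Rows 1 to 6 held 22 of the 34 members, against 702 of the 1247 table spots. The exceptions among the members were srx-131, higher in slide row 2, and srab-22, lower in slide row 9. A position gradient and a strain difference cannot be fully told apart for a gene with 1 spot, so each member is also given after a local position adjustment, in which the median deviation of the surrounding 11 by 11 spots outside the table was subtracted on each array.

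**Figure D2:**
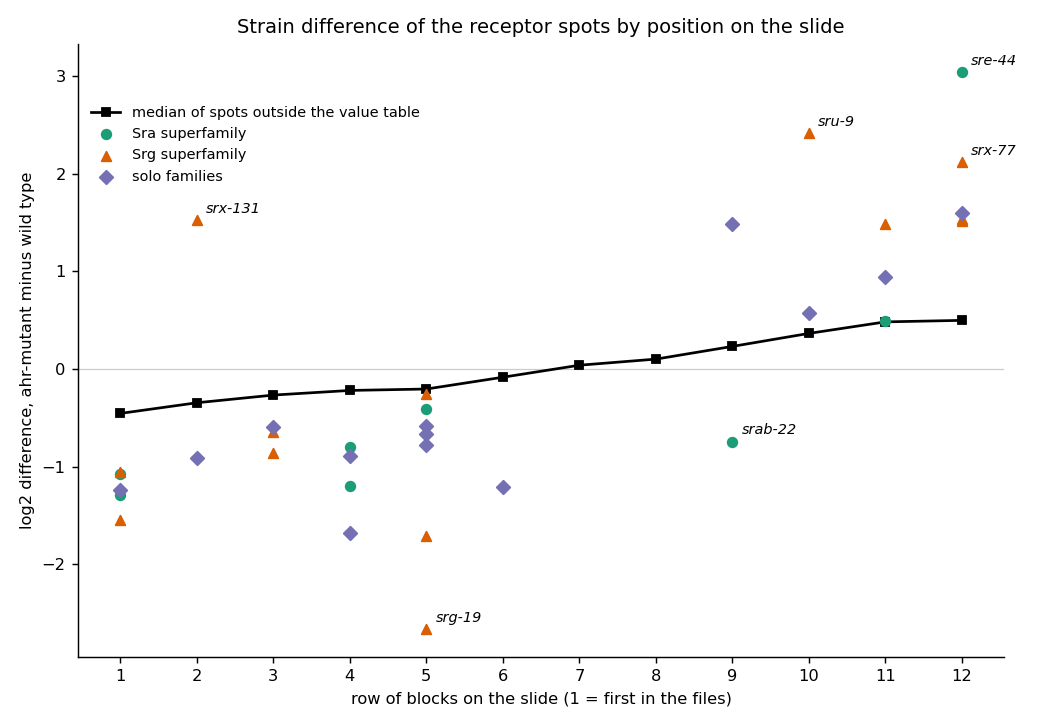
Difference of each receptor spot (ahr-mutant minus wild type, log2, vertical axis) against its row of blocks on the slide (horizontal axis), with symbols for the superfamilies and black squares for the median over spots outside the value table in each row. The medians climb from -0.45 in row 1 to 0.50 in row 12, and srx-131 and srab-22 lie on the other side of 0 from nearly all members in their part of the slide.

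After the local adjustment 9 members were higher and 9 lower at an unadjusted p under 0.05 (26.5% each), against 3.74% and 3.66% of all spots and 20% and 22.9% of table spots. None passed an adjusted p of 0.05, which 0.0133% of spots did. The strains did not overlap for 9 members higher in the mutant (26.5%) and 12 lower (35.3%), against 5% and 5.05% of all spots and 21.6% and 28.1% of table spots. The difference became smaller in 32 members and larger in srx-131 and srab-22. The median fell in size to -0.38, against -0.22 over table spots. In 13 members the adjusted difference still exceeded 2-fold, 8 higher and 5 lower, and 17 members had an unadjusted p under 0.05 both before and after the adjustment. The same shares of table spots were not counted. The median size of the adjusted difference was 0.75 in members and 0.60 over table spots.

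**Figure D3:**
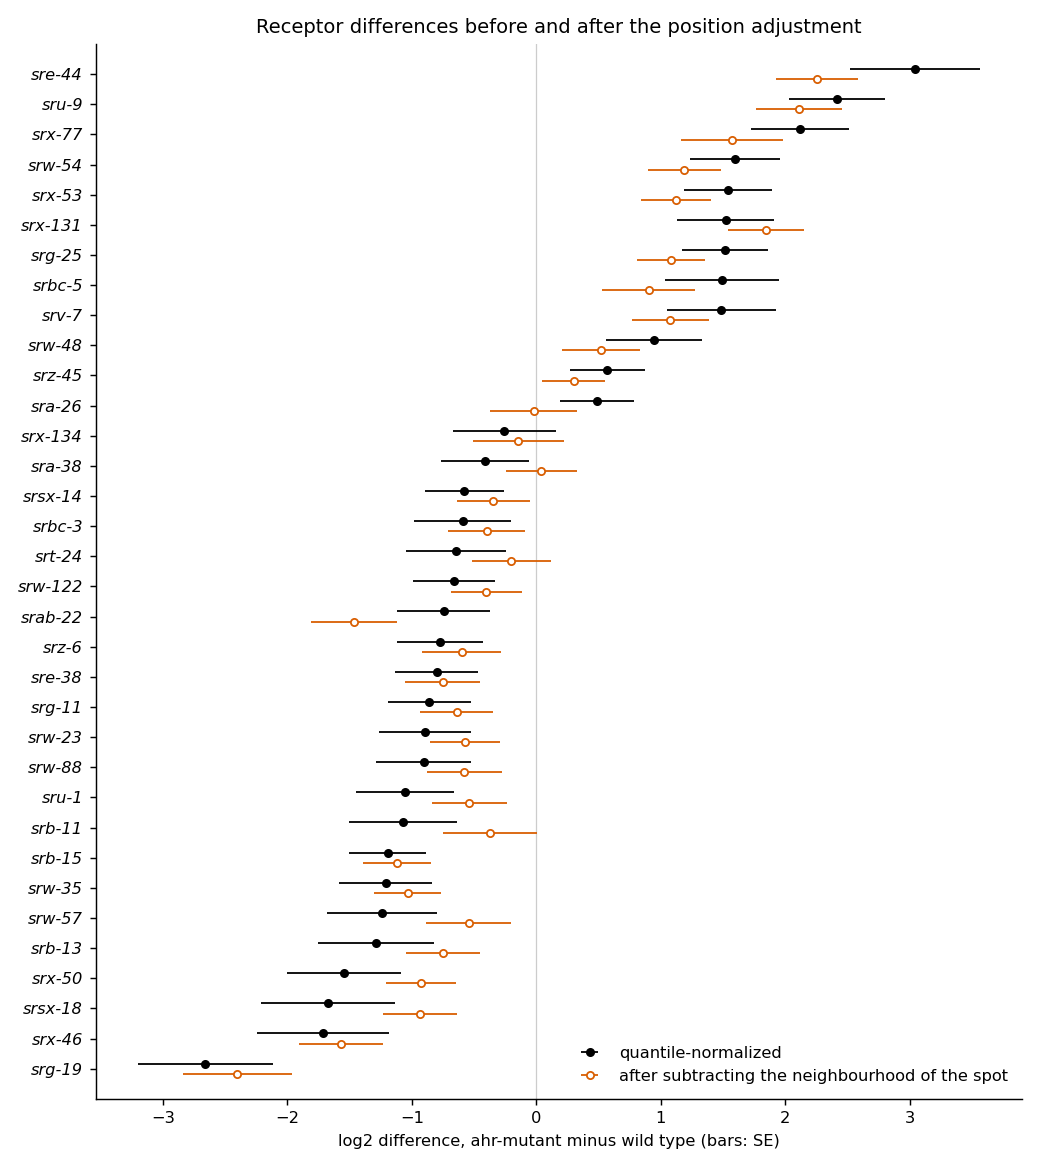
Difference between the strains (ahr-mutant minus wild type, log2, horizontal axis) with its SE for each receptor spot, filled black before and open orange after subtraction of the neighbourhood of the spot. sre-44 and sru-9 have the highest values and srg-19 the lowest both before and after, while sra-26 and sra-38 move to about 0.

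The Sra superfamily takes its name from sra genes, among the first receptor families found in chemosensory neurons of the worm. It had 8 spots, 2 with a higher and 6 with a lower mean in the mutant, and a median difference of -0.77, or -0.56 after the local adjustment. At an unadjusted p under 0.05, 1 was higher and 4 were lower, before and after the adjustment. Of table spots, 28.9% passed as higher and 31.4% as lower before the adjustment, and 20% and 22.9% after it.

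sre-44 (W07G1.2, chromosome II), a receptor of the sre family, showed the highest difference of all members. Its log2 signals were 19.61, 20.15, 20.91 and 18.86 on the ahr-mutant arrays, against 17.56, 16.71 and 16.24 on the wild type arrays. The strains did not overlap, and the lowest mutant array stood 1.30 above the highest wild type array. The spot averaged 19.88 ± 0.86 in the mutant (SD, n = 4) and 16.84 ± 0.67 in the wild type (SD, n = 3), an 8.25-fold higher signal with a difference of 3.04 ± 0.52 (SE). The limma adjusted p was 0.207 and the exact two-sided permutation p was 0.0286, the smallest that 35 splits of 7 arrays can give. Of the 30 members with a value on every array, 19 had this same permutation p. The same share of table spots was not counted. Of these, 33.4% had strains without overlap as higher in the mutant and 41.1% as lower. The sre-44 spot lies in slide row 12, where its neighbours had a median difference of 0.68. With the neighbourhood subtracted the difference was 2.26 ± 0.33 (SE; limma adjusted p = 0.0609). The adjusted p ran from 0.0609 to 0.607 over the alternatives run on the array files. sre-38 went the other way, with 17.05, 16.87, 17.51 and 17.31 in the mutant, against 17.995, 18.31 and 17.65 in the wild type. Its difference of -0.80 ± 0.33 (SE) was almost that after the adjustment, -0.75, and its neighbours were at 0.02. The strains of sre-38 did not overlap in these values but did with median scaling.

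The 3 srb spots were all lower in the mutant. srb-15 (C48B6.5, chromosome I) had log2 signals of 16.02, 15.53, 15.48 and 15.84 on the ahr-mutant arrays, against 16.80, 17.01 and 16.93 on the wild type arrays. The strains were 0.78 apart at their nearest, and the wild type arrays lay within 0.21 of each other. The mean was 15.72 ± 0.26 in the mutant (SD, n = 4) and 16.91 ± 0.11 in the wild type (SD, n = 3), 2.29-fold lower in the mutant (difference -1.19 ± 0.31, SE; limma adjusted p = 0.434). Its neighbours differed by -0.09, and the adjusted difference was -1.12. srb-13 had 16.67, 16.79, 15.75 and 16.92 in the mutant, against 17.44, 18.76 and 17.25 in the wild type. Its difference was -1.28 before and -0.75 after the adjustment, without overlap of the strains in either, and -0.81 without wild type replicate 2. srb-11 lies in slide row 1 among neighbours at -0.89, and its log2 signals were 15.17, 15.08, 14.95 and 15.11 in the mutant, against 16.997, 16.27 and 15.18 in the wild type. Wild type replicate 3 stood only 0.011 above the highest mutant array, and the other wild type arrays were well above. Its difference was -1.07 before and -0.37 after the adjustment, after which the strains overlapped, and -0.65 without wild type replicate 1.

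srab-22 (T20D4.2, chromosome V) was lower in the mutant in a part of the slide where neighbouring spots were higher. Its log2 signals were 17.74, 17.76 and 17.98 on ahr-mutant replicates 2 to 4, against 18.94, 18.71 and 18.07 on the wild type arrays. The strains did not overlap, by a margin of 0.09. The difference was -0.74 ± 0.37 (SE; limma adjusted p = 0.686) among neighbours at 0.56, and after the adjustment it was -1.47 ± 0.34 (SE; adjusted p = 0.239). The adjusted p ran from 0.239 to 0.911 over the alternatives run on the array files, and with median scaling the strains overlapped.

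The pair of sra spots showed little that remained after the adjustment. sra-26 (T19D12.8) had 15.75, 15.57, 15.82 and 15.55 on the ahr-mutant arrays, against 15.32, 15.10 and 15.13 on the wild type arrays. The strains did not overlap, and the difference of 0.49 lay below that of its neighbours, 0.54. It was -0.02 after the adjustment and -0.08 with block medians subtracted, with overlapping strains in both. sra-38 had 15.91, 16.22, 15.31 and 15.55 in the mutant, against 15.78, 16.27 and 16.42 in the wild type. Those strains overlapped, and the difference of -0.41 became 0.04 after the adjustment.

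The Srg superfamily holds the srg, srt, sru, srv and srx receptors. Of its 13 spots 6 had a higher and 7 a lower mean in the mutant, and 6 were higher and 5 lower at an unadjusted p under 0.05. After the adjustment these numbers were 6 and 3, against 28.9% and 31.4% of table spots before it and 20% and 22.9% after it. Its differences were the most spread of the 3 groups, from -2.66 to 2.42, with a median size of 1.52, against 0.94 in the Sra superfamily and 0.91 in the solo families. Its median difference of -0.26 is the value of srx-134 and became 0.07 without ahr-mutant replicate 1.

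sru-9 (Y45F10B.11, chromosome IV) had the smallest unadjusted p of all members. Its log2 signals were 19.39, 20.07 and 20.13 on ahr-mutant replicates 2 to 4, against 17.72, 17.09 and 17.53 on the wild type arrays. All mutant values stood at least 1.66 above all wild type values. The mean was 19.86 ± 0.42 in the mutant and 17.45 ± 0.32 in the wild type (SD, n = 3 each), 5.33-fold higher, with a difference of 2.42 ± 0.39 (SE; limma adjusted p = 0.202). The exact permutation p was 0.1, the smallest that 3 arrays against 3 allow. After the adjustment the difference was 2.11 (adjusted p = 0.087, with a range of 0.087 to 0.584 over the alternatives run on the array files). In the authors' deposited table the ratio of sru-9 on ahr-mutant replicate 1 was 1.00, near the 1.04 of replicate 2 and above the wild type ratios of 0.23 to 0.45. All 538 rows of that table with a value for that array were higher in the mutant, so this ratio is no independent support. With uncertain rows of ahr-mutant replicate 1 also placed in the array files, the difference of sru-9 was 2.21 (limma adjusted p = 0.208). sru-1 was lower, at 15.94, 16.59, 15.73 and 16.92 in the mutant, against 17.77, 17.13 and 17.16 in the wild type. Its difference was -1.06 among neighbours at -0.51 in slide row 1 and -0.54 after the adjustment, when the strains overlapped.

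srg-19 (Y105C5A.11, chromosome IV), listed as a pseudogene, had the lowest difference of all members. Its log2 signals were 17.23, 16.94, 16.26 and 15.22 on the ahr-mutant arrays, against 18.92, 19.85 and 18.44 on the wild type arrays. The highest mutant array stood 1.21 below the lowest wild type array. The mean was 16.41 ± 0.90 in the mutant (SD, n = 4) and 19.07 ± 0.72 in the wild type (SD, n = 3), 6.32-fold lower in the mutant (difference -2.66 ± 0.54, SE; limma adjusted p = 0.245; exact permutation p = 0.0286). Its spot was brighter than 94.4% of spots in the wild type. With neighbours at -0.30, the adjusted difference remained -2.40 ± 0.44 (SE; adjusted p = 0.0978, over the alternatives run on the array files 0.0978 to 0.752). srg-25 (T09D3.5, chromosome V) was higher, at 18.03, 18.42, 18.18 and 17.98 in the mutant, against 16.97, 16.88 and 16.06 in the wild type. These strains were 1.02 apart, with a difference of 1.52 ± 0.35 (SE), 2.86-fold, and 1.09 after the adjustment. srg-11 was lower by a difference of -0.86, or -0.64 after the adjustment, without overlap in either.

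The srx spots split evenly, 3 with a higher and 3 with a lower mean. srx-77 (K03B4.5, chromosome V) had log2 signals of 18.30, 18.26, 17.71 and 18.07 on the ahr-mutant arrays, against 16.71, 15.88 and 15.30 on the wild type arrays. The mutant arrays were all higher, with a mean of 18.08 ± 0.27 (SD, n = 4), while wild type arrays averaged 15.96 ± 0.71 (SD, n = 3). That is 4.34-fold higher, a difference of 2.12 ± 0.40 (SE; limma adjusted p = 0.212), and 1.57 after the adjustment. srx-53 (T27C5.2), listed as a pseudogene, had 18.10, 17.60, 17.91 and 17.53 in the mutant, against 16.68, 16.33 and 15.72 in the wild type. Its difference was 1.54 ± 0.35 (SE), 2.91-fold, and 1.12 after the adjustment. Both spots lie in slide row 12, where neighbours of srx-77 differed by 0.57 and those of srx-53 by 0.49, and neither showed overlap before or after.

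srx-131 (F09F3.2, chromosome V) was the 1 member with a higher signal among those in slide rows 1 to 6. It had 18.17, 17.33, 17.37 and 18.39 on the ahr-mutant arrays, against 15.92, 16.65 and 16.31 on the wild type arrays. The strains stood 0.68 apart, with means of 17.81 ± 0.54 in the mutant (SD, n = 4) and 16.29 ± 0.37 in the wild type (SD, n = 3). The difference was 1.52 ± 0.39 (SE; limma adjusted p = 0.434), 2.87-fold, while the neighbours of the spot differed by -0.41. After the adjustment it was 1.85 ± 0.31 (SE), 3.59-fold, with an adjusted p of 0.0827. That p ranged from 0.0827 to 0.759 over the alternatives run on the array files. In the gene order of WBcel235 only 4 genes lie between srx-131 and srx-134 (F09F3.7). The authors' deposited table gives these neighbours opposite directions, and the table value of srx-134 is 1 of the averaged rows described below. The spot of srx-134 had log2 signals of 14.55, 15.57, 15.96 and 16.03 in the mutant, against 15.76, 15.63 and 15.96 in the wild type. ahr-mutant replicate 1 stood below the rest and the other values overlapped, and the difference of -0.26 turned to 0.07 without that array.

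srx-46 (E02C12.2) had 15.15, 16.35, 16.68 and 16.65 on the ahr-mutant arrays, against 18.29, 18.60 and 16.88 on the wild type arrays. Its neighbours differed by -0.01, and its difference of -1.71 ± 0.53 (SE) was -1.57 after the adjustment. srx-50 had 17.20, 16.77, 15.41 and 16.82 in the mutant, against 18.08, 18.45 and 17.76 in the wild type. Its neighbours in slide row 1 differed by -0.75, and its difference of -1.55 became -0.93. Neither spot showed overlap of the strains before or after the adjustment. srx-110 has only the ratios of the authors' deposited table, which were 0.98, 0.76 and 1.00 for ahr-mutant replicates 2 to 4, against 2.46, 5.72 and 1.59 for the wild type. These ratios belong to a spot whose gene is uncertain.

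srv-7 (T22B7.5, chromosome X), the only srv row, was higher. The spot had log2 signals of 17.68, 17.01, 18.07 and 16.64 on the ahr-mutant arrays, against 15.82, 16.40 and 15.37 on the wild type arrays. The strains did not overlap, and the difference was 1.49 ± 0.44 (SE; limma adjusted p = 0.521), 2.80-fold, or 1.08 after the adjustment. srt-24, the only srt row, had 18.19, 17.66, 17.37 and 18.42 in the mutant, against 18.03, 18.54 and 19.10 in the wild type. These values overlapped, and the difference of -0.64 lay close to that of its neighbours, -0.55, with -0.20 after the adjustment. Without wild type replicate 3 it was -0.37.

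Among the solo families 4 spots had a higher and 9 a lower mean in the mutant, all 13 with the sign of their neighbours. Their median difference was -0.66, or -0.40 after the adjustment. At an unadjusted p under 0.05, 3 were higher and 5 lower, and after the adjustment 2 and 2. The shares of table spots were 28.9% and 31.4% before the adjustment, and 20% and 22.9% after it. In the srw family, which is related to neuropeptide receptors, 2 of 7 spots were higher and 5 lower.

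srw-54 (Y32B12C.2, chromosome V) led the srw family. Its log2 signals were 17.21, 16.90, 17.58 and 17.03 on the ahr-mutant arrays, against 16.08, 15.61 and 15.06 on the wild type arrays. The strains were 0.82 apart, with means of 17.18 ± 0.29 in the mutant (SD, n = 4) and 15.58 ± 0.51 in the wild type (SD, n = 3). The difference was 1.60 ± 0.36 (SE; limma adjusted p = 0.325), 3.02-fold, and 1.19 after the adjustment. srw-48 was higher by a difference of 0.94, or 0.52 after the adjustment, with overlapping strains. The lower srw spots were srw-57, srw-35, srw-88, srw-23 and srw-122, whose differences ran from -1.24 to -0.66. Of these srw-35 (T08G3.10) had the largest adjusted difference in size. It had 17.01, 18.17, 17.91 and 17.98 in the mutant, against 18.99, 19.20 and 18.75 in the wild type. Its difference of -1.21 ± 0.37 (SE) stood among neighbours at -0.09 and was -1.03 after the adjustment, without overlap.

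For the other lower srw spots the adjusted differences were smaller and the strains overlapped. srw-57 had 16.83, 16.94, 15.50 and 16.59 in the mutant, against 17.26, 17.58 and 18.29 in the wild type, and its difference of -1.24 became -0.54. srw-122 had 15.44, 14.92, 15.41 and 14.82 in the mutant, against 15.54, 16.03 and 15.85 in the wild type, and its difference of -0.66 became -0.40. Both were without overlap before the adjustment. The values of srw-23, 16.33, 15.51, 15.42 and 15.55 in the mutant, against 16.17, 16.59 and 17.01 in the wild type, overlapped through ahr-mutant replicate 1 alone. Its difference was -0.89 before and -0.57 after the adjustment, close to those of srw-88, -0.91 and -0.58.

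srbc-5 and srbc-3 had opposite signs, and 19 genes lie between them on chromosome V. srbc-5 (T28A11.7) had log2 signals of 17.65, 18.73, 19.41 and 18.31 on the ahr-mutant arrays, against 17.01, 16.57 and 17.52 on the wild type arrays. ahr-mutant replicate 1 stood only 0.13 above the highest wild type array. The difference was 1.49 ± 0.46 (SE; limma adjusted p = 0.541), 2.81-fold, among neighbours at 0.63 in slide row 9, and after the adjustment it was 0.90 with overlapping strains. srbc-3 had 14.62, 15.04 and 14.70 on ahr-mutant replicates 2 to 4, against 14.95, 15.28 and 15.90 in the wild type. Its difference was -0.59, with overlap, and -0.40 after the adjustment, when the strains were barely apart. The adjusted values nearest each other were 15.2608 on ahr-mutant replicate 3 and 15.2611 on wild type replicate 1. Without wild type replicate 3 the difference before the adjustment was -0.33.

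Both srsx spots were lower. srsx-18 (C04E6.2, chromosome V) had log2 signals of 15.95, 15.62, 15.43 and 15.64 on the ahr-mutant arrays, against 16.63, 18.81 and 16.56 on the wild type arrays. Wild type replicate 2 stood far above the other wild type arrays, and all 3 lay above the mutant. The difference of -1.67 ± 0.54 (SE; limma adjusted p = 0.548) was -0.94 after the adjustment, with neighbours at -0.80, and also -0.94 without wild type replicate 2. srsx-14 had 15.05, 15.08, 15.37 and 15.11 in the mutant, against 15.76, 16.05 and 15.38 in the wild type. Its difference was -0.58, by a margin of 0.011 without overlap, and -0.35 with overlap after the adjustment.

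The srz spots differed in sign. srz-6 (T21B4.1, chromosome II) had 14.92, 15.24 and 14.69 on ahr-mutant replicates 2 to 4, against 15.77, 15.59 and 15.81 on the wild type arrays. The strains did not overlap, with a difference of -0.77 ± 0.35 (SE; limma adjusted p = 0.662) and -0.60 after the adjustment. srz-45, listed as a pseudogene, was higher by 0.57 before and 0.30 after it, without overlap. Both were dim spots, at percentiles 37.4 (srz-6) and 22.5 (srz-45) of the wild type signals.

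Across the 13 families with a row, 8 held rows of both directions in the authors' deposited table. There, 12 members were higher (34.3%), against 41.7% of all rows, and 23 were lower (65.7%), against 58.3%. A limma fit to its ratios gave an adjusted p under 0.05 for 34 of the 35, the exception being sra-26, and for 84.5% of all rows, which the authors had chosen beforehand on these arrays. srb (3 of 3) and srsx (2 of 2) were lower throughout, and srab, srt and srv had 1 row each. No family had more than 1 row and only higher ones. The 12 members higher in that table were the 12 with a value for ahr-mutant replicate 1, and the 23 lower ones had none for that array, as in the table as a whole, where all 538 rows with such a value were higher. In the array files 19 of the 22 lower spots have a level on that array.

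**Figure D4:**
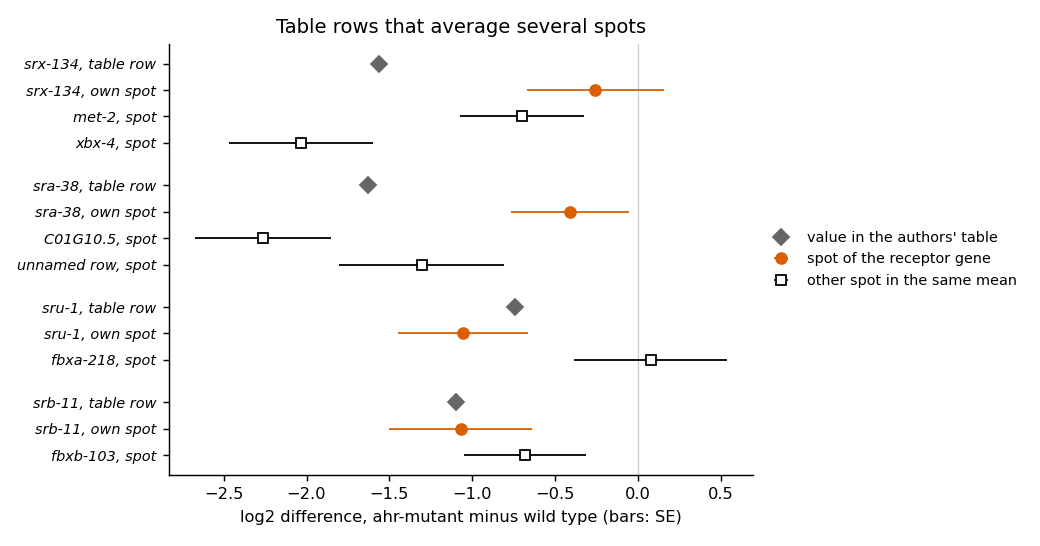
Difference between the strains (ahr-mutant minus wild type, log2, horizontal axis) for 4 receptor rows of the authors' table that average several spots: the table value (grey diamond, no error), the receptor's own spot (orange) and the other spots in the mean (open squares), with SE. The table values of srx-134 and sra-38 lie far below those of their own spots.

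In the 4 averaged rows the receptor's own spot and the table did not always show the same difference. For srx-134 the authors' deposited table gives a log2 difference of -1.56, while its own spot differed by -0.26 ± 0.41 (SE). The other spots in that mean are annotated to met-2, a histone methyltransferase, and to xbx-4, a gene expressed in ciliated neurons, and differed by -0.70 and by -2.03 ± 0.43 (SE). For sra-38 the authors' deposited table gives -1.63, while the own spot differed by -0.41 ± 0.35 (SE), and the spots of C01G10.5 and of an unnamed row by -2.26 and -1.31. The table value of sru-1, -0.74, is smaller in size than the -1.06 of its own spot, or the -0.94 of that spot without ahr-mutant replicate 1, which the table row lacks. The other spot in that mean, of the F-box gene fbxa-218, differed by 0.08. srb-11 had nearly equal differences, -1.10 in the authors' deposited table and -1.07 at its own spot, next to -0.68 for fbxb-103. Among all rows of the table, 181 were traced to such averages, and the own spot had the opposite sign to the row in 10.5% of them, against 0.0938% of rows with a single spot.

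Other genes of chemosensory signalling had few rows. Of 6 rows for signal transduction in sensory neurons, none passed the adjusted test, and 1 was higher and 0 lower at an unadjusted p under 0.05, which 28.9% of table spots passed as higher and 31.4% as lower. That 1 was odr-8, which is needed to bring odorant receptors to the cilium, at a difference of 0.82 and 0.11 after the adjustment. arr-1, the worm's arrestin, and 4 guanylate cyclases, some of them sensors in their own right (gcy-6, gcy-23, gcy-31 and gcy-37), had unadjusted p above 0.05. All 4 cilium rows had lower means in the mutant, 3 of them at an unadjusted p under 0.05, and none passed the adjusted test. Of all rows of the authors' deposited table, 58.3% were lower, and 31.4% of table spots were lower at that unadjusted p. The spots of dyf-4, xbx-4 and bbs-5 lie in slide rows 2, 3 and 4, and that of tmem-17 in row 7. In slide rows 1 to 6, 648 of 702 table spots were lower. The differences of the cilium spots were -2.03 for xbx-4, -1.73 for dyf-4, a gene named for dye filling of sensory neurons, -1.38 for bbs-5, which encodes a part of the BBSome of cilia, and -0.45 for tmem-17, of the ciliary transition zone. After the adjustment these were -1.86, -1.26, -1.37 and -0.35.

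The Str superfamily, the other large group of chemosensory receptors, had 28 spots, 10 with a higher and 18 with a lower mean in the mutant. Its median difference was -0.51, or -0.22 after the adjustment, next to -0.65 and -0.38 for the 34 members, and no test of this difference was made. At an unadjusted p under 0.05, 6 were higher and 9 lower, against 28.9% and 31.4% of table spots. No row was named for a pan-neuronal gene or for a gene of the fixed list of ciliated sensory neuron markers, nor for muscle or intestine markers, so the content of these tissues could not be compared. Of the touch receptor neuron markers, mec-7 and mec-4 had differences of 1.62 and 1.20, in slide rows 11 and 12, with limma adjusted p of 0.325 and 0.579, and of 1.27 and 0.78 after the adjustment. Of 9 hypodermis marker spots, all collagens, 4 were higher and 2 lower at an unadjusted p under 0.05, and 4 and 1 after the adjustment. The shares of table spots were 28.9% and 31.4% before it, and 20% and 22.9% after it. The median difference of the collagen spots was 0.72, or 0.53 after the adjustment. Collagen spots with a lower mean lie in slide rows 1 to 5, and those with a higher mean in rows 6 to 10. Of 4 germline and sperm marker spots, 3 were higher and 1 lower at that p, and 3 and 0 after the adjustment, beside the same shares of table spots. The lower one lies in slide row 2 and the others in rows 7 to 9. The median of the 4 was 1.39, or 0.99 after the adjustment, and the highest was nspd-7 at 2.62, or 2.12 after the adjustment. None of these marker spots passed the adjusted test. Of the AHR-1 partner and pathway list, alr-1 and hlh-34 had differences of -0.53 and -0.25, neither at an unadjusted p under 0.05. The part of cell content in the receptor values was not tested.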

How the data were processed

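The members and gene lists were chosen with earlier results of these data known. Per the labels' protocols, total RNA was reverse transcribed with Cy3-dUTP and hybridized in 1 colour. The authors deposited 1 linear intensity per spot, with scanner, spot quantification and background treatment not given in the sources used here. Median intensities before normalization lay between 62372.5 and 90919 on the ahr-mutant arrays and between 52277 and 66600 on the wild type arrays. The brightness of the arrays thus ran partly with strain, and the number of arrays limits the precision. A second deposited file, the authors' value table, holds ratios. Set against the arrays, a ratio is the signal scaled by an array constant and a row constant, which is read from the values and not from a label. Table rows were matched to spots within 0.0001 on the log2 scale (1080 of 1290), and averaged rows were traced to a spot per row at the slide position of each row number (181 more). The order of ahr-mutant replicate 1 was recovered by aligning its signals with the other arrays. On the spots placed, its rank correlation with the other arrays was 0.682 to 0.812, against -0.0117 to 0.0354 as deposited. The aligning itself sought a high correlation, so this rise cannot show that the order is right. Of 336 positions among the placed spots that were known from table values, 336 were found again. A stretch of spots in which some known positions lay elsewhere had been set aside before. Blank, 0 and negative intensities were missing values. Signals were taken to log2 and quantile normalized, and R 4.3.3 with limma 3.58.1 was used to fit all spots with at least 2 values per strain (lmFit, eBayes; a two-sided test with no covariate) with Benjamini-Hochberg adjustment over all of them. Steps were tested on simulated data. Single members had an exact two-sided permutation test. Every member is named. Array-by-array values are given for the member of smallest unadjusted p in each family, the 10 smallest overall and those whose strains came to overlap or whose direction turned under an alternative, and for a few more chosen after their values were seen (srb-13, srbc-3, srw-23, srw-35, srx-46 and srx-50). RefSeq WBcel235 gave chromosomes, gene order and biotypes, and coordinates are left out, as no build is named for the array. Alternatives were median scaling, quantile normalization after re-placing, normexp, a dim-spot filter, spots with a value on every array, block medians, local position adjustment, further placed rows, each array left out, and the authors' table.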

Additional observations from a re-analysis of the deposited data

Results flagged for a closer look

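In 30 members with a value on all 4 mutant arrays, the highest and lowest mutant values were set against the others by Dixon's criterion, which chance meets in about 1 of 20 sets. The spot of srw-23 met it. Its log2 signal was 16.33 on ahr-mutant replicate 1, against 15.42 to 15.55 on the other mutant arrays. Without that array the difference of srw-23 (ahr-mutant minus wild type) was -1.10, against -0.89 with it.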

How the results depend on the processing

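No paired analysis was made, because the labels give no pairing of samples between the strains. The sample numbers (56, 60, 62 and 54 for ahr-mutant, and 59, 61 and 63 for wild type) do not show whether samples were handled in pairs. No member passed an adjusted p of 0.05 in the array files under any alternative run, while 33 of the 34 passed in the limma fit to the authors' deposited table, as did 84.5% of all rows. That table gave 22 members lower at an unadjusted p under 0.05 and medians of -0.85 (all members), -1.02 (Sra) and -0.74 (Srg). Members lower at an unadjusted p under 0.05 numbered 14, and 9 with block medians subtracted or with the local adjustment. The median of the members, -0.65, was -0.89 with normexp, -0.39 with block medians, -0.38 with the local adjustment, and, in 2 settings chosen after seeing the data, -0.38 with a wider neighbourhood and -0.41 with the local adjustment without ahr-mutant replicate 1. The solo median, -0.66, was -1.10 with normexp, -0.44 with block medians, -0.40 with the local adjustment and -0.42 with the wider neighbourhood, and the Sra median was -0.56 with the local adjustment. The Srg median turned to 0.069 without ahr-mutant replicate 1 and to 0.158 with the local adjustment as well, values of srx-134. It was -0.51 with normexp, -0.45 with a value on every array, -0.13 with block medians and -0.14 with the local adjustment. sra-26 turned to -0.077 (block medians), -0.019 (local adjustment) and -0.0078 (the same without ahr-mutant replicate 1), and sra-38 to 0.042 (local adjustment). The cause was not tested. With each array left out, 0 members passed the adjusted test, 9 to 10 were higher and 9 to 12 lower at an unadjusted p under 0.05, and 27 to 31 had strains that did not overlap. Medians then ran from -0.74 to -0.58 (all), -0.98 to -0.62 (Sra), -0.43 to 0.069 (Srg) and -0.76 to -0.56 (solo). The tracing of averaged rows was also chosen after seeing the data.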
